A study of Rattus norvegicus with 69 samples.

Results

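The genes described here are those of the proteasome, the barrel-shaped protease that degrades proteins tagged with ubiquitin. They were chosen by name, as all probe sets of a rat expression array that the platform annotation pairs with a single gene symbol beginning with Psma to Psmg followed by a digit. The rule found 60 probe sets of 46 genes, among 14217 genes with a single symbol on the array. For the 9 genes with several probe sets, the probe set with the highest mean signal was used. Of the 46 genes, 44 encode proteasome subunits, activators, an inhibitor or assembly chaperones, and these 44 are the members counted throughout. The other 2, Psmc3ip (a meiotic recombination factor) and Psme3ip1, match by symbol only and are given apart. Psmb6 and Psme3 were represented only among 6 probe sets that list several symbols, and these were left out. Psma8, the testis counterpart of Psma7, and Psmb11, the subunit of thymic epithelium, were not analysed here.

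RNA was measured in 69 samples from Sprague Dawley rats, with a separate array for each. In all, 49 samples were seminiferous tubules that had been dissected under transillumination into 10 stage groups of the cycle of the epithelium. In the order of the cycle these were I, II-III, IV-V and VI, then VIIa.b and VIIc.d (parts of stage VII), and finally VIII, IX-XI, XII and XIII-XIV. Each of these pooled tubules of 2 rats aged 55 to 60 days, 25 segments per rat, with n = 5 per group and n = 4 for stage IV-V. The labels give the group called IX-XI here also as IX-XII, so that it may include stage XII. The isolated cells were Sertoli cells (n = 4, about 85% pure), pachytene spermatocytes (n = 4) and round spermatids (n = 4), all from rats aged 55 to 60 days. Spermatogonia plus early spermatocytes (n = 3) came from rats aged 18 to 20 days, so that age differs with cell type in comparisons with this group. Germ cells had been separated by elutriation to a purity of 85% to 95%, and whole testis gave 5 samples whose age is not stated. No treatment or transgene was involved, and where the labels do not say that samples came from separate animals, p-values measure the spread between these samples.

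The 20S core of the proteasome is a stack of rings: alpha subunits (Psma genes) form the gates at both ends, and beta subunits (Psmb genes) form the inner rings, 3 of them carrying the cutting sites. The 19S cap sits on the gate; its ATPases (Psmc genes) unfold substrates and its non-ATPase subunits (Psmd genes) bind and trim ubiquitin chains. Interferon-induced subunits (Psmb8, Psmb9 and Psmb10) replace the constitutive cutting subunits in the immunoproteasome, which makes peptides for display on MHC class I, and PA28 (Psme1 and Psme2) is an activator from the same response. In the testis, PA200 (Psme4) caps the core in the spermatoproteasome and is known for the degradation of histones during spermatogenesis.

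Values are array signals on a linear scale, with the deposited scaling that sets the trimmed mean of each array to 100. The median signal of the arrays ranged from 30.9 to 58.2; it was lowest in Sertoli cells (30.9 to 32.1) and highest in spermatogonia plus early spermatocytes (43.7 to 58.2). Differences are on the log2(signal + 5.11) scale with standard errors (SE) from limma, and 5.11, the 10th percentile of the table, pulls the differences of weak genes towards 0. A member was called when its adjusted p was under 0.05 and the difference at least 2-fold. Counts at an unadjusted p under 0.05 have no background, since the share of all probe sets at that threshold was not counted here. Summed Sertoli markers were highest in Sertoli cells (13069 to 19677). They were 3260 to 4513 in spermatogonia plus early spermatocytes and 612 to 829 in pachytene spermatocytes. The part of Sertoli cells in differences between these germ cell groups was not tested. Summed round spermatid markers were 15838 to 19179 in round spermatids. The pachytene list did not separate pachytene spermatocytes (8961 to 14050) from round spermatids (10599 to 11521), and the summed spermatogonial list was higher in Sertoli cells (1474 to 1843) than in spermatogonia plus early spermatocytes (843 to 1252). That sum was set by Uchl1 (1181 against 451), while Kit (42.9 against 150), Sohlh1, Dmrt1, Gfra1 and Sall4 were lower in Sertoli cells. No detection calls were used here, so that a signal of a few units was not shown to lie above background.

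The heat map of the members across the 15 groups shows that they did not follow a common course. Between spermatogonia plus early spermatocytes and pachytene spermatocytes, 7 of the 44 members rose and 13 fell, where 18.5% of all 20253 probe sets tested rose and 28.6% fell. The 13 that fell were 7 constitutive 20S subunits, 4 members of the interferon-induced group, Psmc6 and Psmd5. The 7 that rose were 5 subunits of the 19S cap, the activator Psme4 and the inhibitor Psmf1. From pachytene spermatocytes to round spermatids, 2 members rose and 5 fell, against 8.9% and 13.1% of all probe sets. In Sertoli cells against the mean of the 3 germ cell groups, 9 members were higher and 3 lower, against 24.1% and 29.7%. In spermatogonia plus early spermatocytes against Sertoli cells, 1 was higher and 1 lower, against 24.9% and 12%. In each of these comparisons the share of called members lay below or near the background share.

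**Figure D1:**
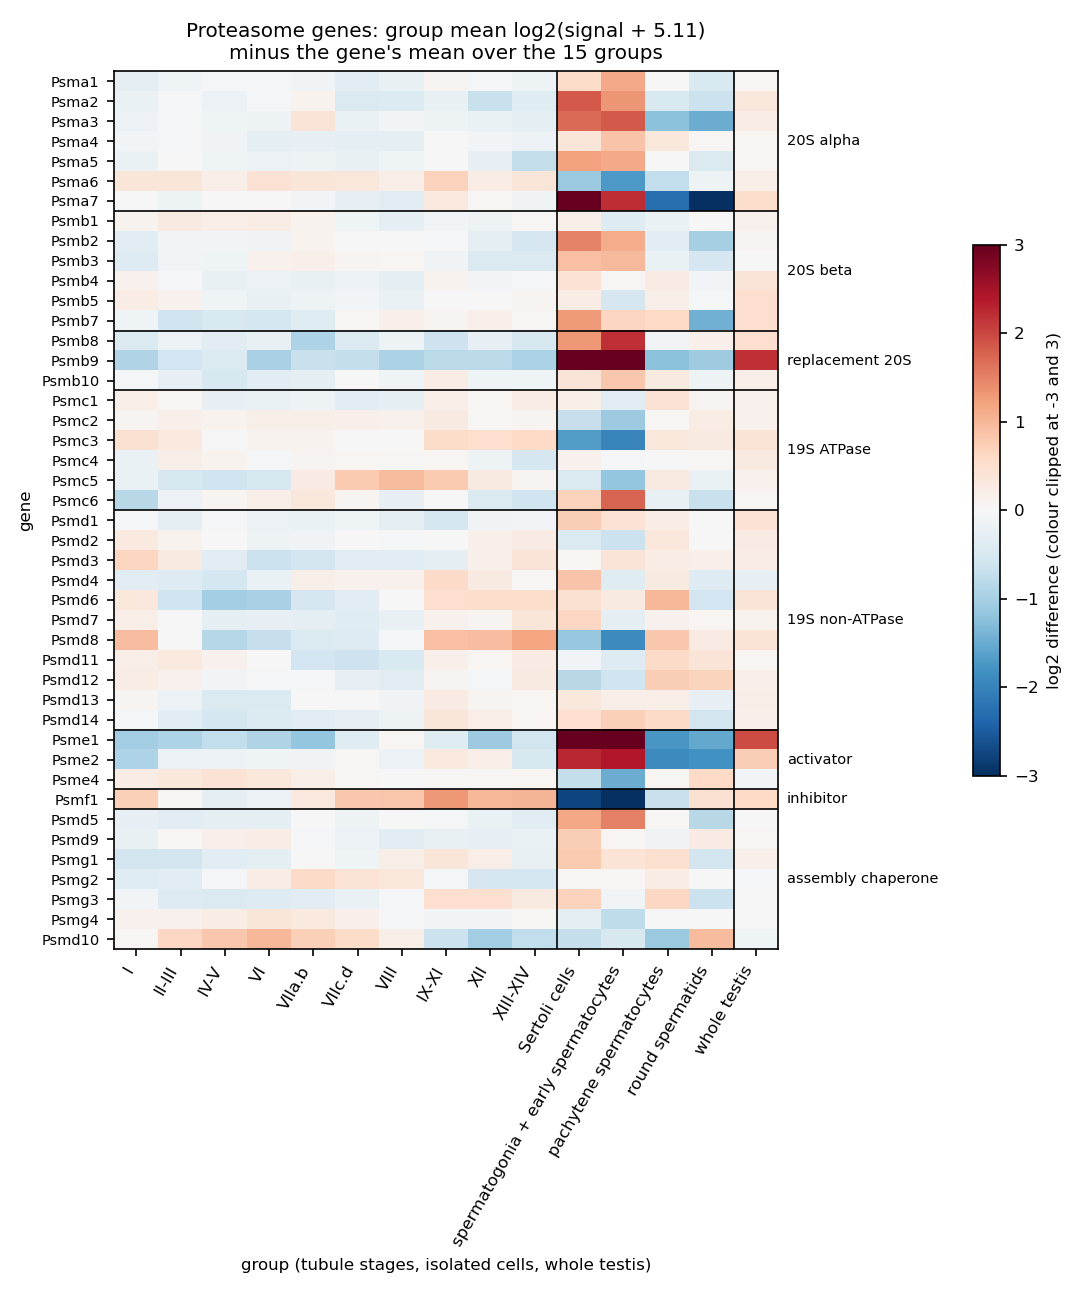
Each row is a member and each column a group (10 tubule stages, 4 isolated cell types, whole testis); colour gives the group mean of log2(signal + 5.11) minus the gene's mean over the 15 groups, clipped at -3 and 3. Psma7, Psmb9, Psme1 and Psme2 are high in Sertoli cells and spermatogonia plus early spermatocytes, whereas Psmf1, Psmc3 and Psmd8 are low there.

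The splits depend on how arrays are scaled, since arrays of the cell groups have different medians. Quantile normalization moved the median of all probe sets by 0.27 (log2) in the pachytene comparison and by -0.14 in the comparison of spermatogonia plus early spermatocytes with Sertoli cells. Centring each array on its median moved them by 0.36 and -0.57, and moved the Sertoli comparison by 0.32. The pachytene split of 7 higher and 13 lower became 6 and 14 with quantile normalization and 15 and 10 with median centring. The split of 1 and 1 against Sertoli cells became 5 and 2 or 0 and 16, that of 9 and 3 for Sertoli cells became 13 and 1 with median centring, and that of 2 and 5 for round spermatids became 2 and 3 with quantile normalization. No named call changed its direction under either scaling.

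Among the alpha subunits of the 20S core, Psma7 stood out. Its signal was 1046, 1213, 1173 and 1076 in the 4 Sertoli cell samples and 701, 663 and 451 in spermatogonia plus early spermatocytes. Pachytene spermatocytes gave 26.2, 6.83, 30.5 and 35.5, and round spermatids 8, 5.09, 8.04 and 32.1. No sample of the later germ cells came near any sample of the other cells. Psma7 fell by 4.47 ± 0.390 (SE, limma, adjusted p = 7.91e-09) into pachytene spermatocytes, and it was 4.15 ± 0.299 higher in Sertoli cells than in the mean of the germ cell groups (adjusted p = 5.24e-10). The tubule samples lay in between, with stage means from 99.2 at VIII to 156 at IX-XI. Sertoli cells and spermatogonia plus early spermatocytes also held markers of interstitial cells, given below, whose part in these differences was not tested. Psma7 is a constitutive alpha subunit, and its probe set was the only one used; RefSeq lists 3 pseudogene entries for it.

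Psma3, another alpha subunit, followed the same course at a lower level, and the same limit from interstitial markers holds. It measured 272, 338 and 302 in spermatogonia plus early spermatocytes, then 45.6, 41.5, 40.2 and 11.2 in pachytene spermatocytes and 22.7 to 27 in round spermatids, and it fell by 3.08 ± 0.280 into pachytene (limma, adjusted p = 1.37e-08). Psma2 fell by 1.79, Psma5 by 1.17 and Psma1 by 1.13; Psma4 went from 611 ± 14 (SD, n = 3) to 427 ± 36.9 (SD, n = 4) and was not called. Psma6 differed from the rest of its ring. Spermatogonia plus early spermatocytes averaged 1105 ± 74.3, pachytene spermatocytes 2194 ± 409 and round spermatids 3289 ± 232, and the pachytene difference of 0.97 was under 2-fold. Psma6 was also the only member whose stage means (4231 to 5977) all exceeded its means in every isolated cell type (1105 to 3289); RefSeq lists 5 pseudogene entries for it. Psma4, Psmd1 and Psmb8 showed the opposite, each with all stage means below all cell means.

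Of the 6 constitutive beta subunits used, Psmb2 and Psmb3 fell into pachytene spermatocytes, by 1.44 and 1.16. The structural subunits Psmb1 and Psmb4 and the cutting subunits Psmb5 (chymotrypsin-like) and Psmb7 (trypsin-like) were not called there. Taking alpha and beta subunits together, 7 of 13 constitutive 20S genes fell and 0 rose with limma (2 were higher at an unadjusted p under 0.05), where 28.6% of all probe sets fell and 18.5% rose, with a median of -1.13 against -0.15 over all probe sets. With median centring 2 rose and 4 fell, and the calls of Psma1, Psma5 and Psmb3 were lost.

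Psmb7 changed later. It was 717, 648, 571 and 675 in pachytene spermatocytes and 178, 133, 167 and 140 in round spermatids, with a wide gap between them. It fell by 2.05 ± 0.116 (limma, adjusted p = 1.02e-10). In Sertoli cells, where it measured 925 to 1147, it was 1.35 ± 0.0964 higher than the mean of the 3 germ cell groups, as were Psma2 (1.77), Psma3 (1.99) and Psmb2 (1.56). For Psma3, spermatogonia plus early spermatocytes (304 ± 33.1) were not below Sertoli cells (272 ± 25.4). The array signal of Gapdh 3′ probes over 5′ probes, a sign of RNA integrity, was 2.13 ± 0.306 in round spermatids and 1.22 ± 0.193 in pachytene spermatocytes. The same ratio for actin went the other way, with 1.77 to 1.99 against 2.02 to 2.56. Both ratios moved with every difference between these groups, and their part was not tested. Spermatogonia plus early spermatocytes replicate 3 had the highest actin ratio (3.64) and array median (58.2) of all samples. With any 1 cell sample left out, 7 to 10 members rose and 13 fell into pachytene spermatocytes.

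Of the interferon-induced members, Psme1 and Psmb9 had the largest log2 differences of all members in the pachytene comparison, while Psmb8 and Psme2 fell by less than Psma7 and Psmb10 was not called. Psmb9, the replacement for Psmb6, gave 163, 203, 195 and 229 in Sertoli cells. Spermatogonia plus early spermatocytes gave 396, 362 and 338, against 1.57, 2.61, 3.64 and 2.66 in pachytene spermatocytes. Round spermatids gave 1.41 to 6.45. The later germ cells were at or near the 10th percentile of the table, and it fell by 5.59 ± 0.221 in the fit (limma, adjusted p = 1.72e-13), a size that depends on the 5.11 added. Psmb8, the replacement for Psmb5, was 326, 408 and 346 in spermatogonia plus early spermatocytes and 61.3 to 76 in pachytene spermatocytes, and it fell by 2.27 ± 0.171 (limma, adjusted p = 9.55e-10). Psmb10, the replacement for Psmb7, was 188 ± 12 and then 128 ± 13.3, and was not called.

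The PA28 subunits moved with them. Psme1 was 389, 480, 596 and 652 in Sertoli cells. Spermatogonia plus early spermatocytes gave 806, 940 and 583, against 3.63, 4.49, 5.51 and 7.66 in pachytene spermatocytes. Psme2 was 404, 462 and 384 in spermatogonia plus early spermatocytes and 19.2, 5.24, 10.1 and 47.3 in pachytene spermatocytes. Neither gene showed overlap between those groups, and Psme1 fell by 6.21 ± 0.212 and Psme2 fell by 4.31 ± 0.467 (limma, adjusted p = 4.23e-14 and 1.48e-07). Another probe set of Psme1 with a mean signal of 63.3 gave a pachytene difference of 0.10, and its correlation with the used one over the 69 arrays was -0.52, so the course of Psme1 rests on its brighter probe set. Psmb9 (2.79), Psme1 (3.52) and Psme2 (2.70) were also higher in Sertoli cells than in the mean of the germ cell groups, though none was higher than in spermatogonia plus early spermatocytes by group mean.

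Markers of interstitial cells moved with these genes. The 5 macrophage and blood markers summed to 1749 to 2524 in spermatogonia plus early spermatocytes, 183 to 229 in Sertoli cells, 61.5 to 100 in pachytene spermatocytes and 77.9 to 117 in round spermatids. In Sertoli cells Cd68 (11.9) and Ptprc (10.5) were within the range of their stage means in tubules, and Cd163 (6.41) was below it. Lyz2 (127, stages 33.1 to 70) and Hbb (52.5, stages 13.8 to 35.7) were above it. In spermatogonia plus early spermatocytes Cd68 was 175, Ptprc 124, Cd163 39.3, Lyz2 583 and Hbb 1189. The 6 Leydig cell markers summed to 5601 to 7438 in Sertoli cells and 5973 to 9428 in spermatogonia plus early spermatocytes, but 165 to 371 in pachytene spermatocytes and 158 to 368 in tubules. Endothelial markers summed to 485 to 1365 in Sertoli cells. Peritubular myoid markers summed to 2185 to 5288 in Sertoli cells and 340 to 695 in tubules. In tubules, which contain Sertoli cells and germ cells of all kinds, stage means were 4.22 to 9.6 for Psmb9 and 10.6 to 33.7 for Psme1. Both were far below either isolated preparation. Among 20S genes, all stage means of Psma1, Psma2, Psma3, Psma5, Psma7, Psmb2 and Psmb3 were also below both preparations. Those of Psma6 were above, and those of Psmb1, Psmb4 and Psmb5 were not all below. No marker in these lists was at 0, and the part of the interstitial cells in these results was not tested.

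Other genes of antigen display were also measured. Of 6 genes tested from the list for antigen processing and the interferon response, 5 fell into pachytene spermatocytes, where 28.6% of all probe sets did. The other was Tapbp, which tethers MHC class I to the peptide transporter, with means of 101 and 103. The log2 differences were -5.05 for Tap1, a peptide transporter subunit, -4.54 for the transcription factor Irf1, -4.41 for B2m, the light chain of MHC class I, -2.98 for Tap2 and -2.18 for Irf8. Irf1 averaged 1424 in spermatogonia plus early spermatocytes and 1397 in Sertoli cells, but 54.7 in whole testis and 73 to 95.9 across stages. B2m was 1201 in whole testis. Irf1 thus had its high level in the 2 isolated preparations alone among the 15 groups.

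The data on replacement against constitutive subunits can be read as within-array ratios, which show unequal change and not relative abundance. The log2 ratio of Psmb8 to Psmb5 went from -1.16 ± 0.427 (SD, n = 3) to -4.11 ± 0.358 (SD, n = 4) in pachytene spermatocytes, where the exact two-sided permutation test gave p = 0.0571, the smallest this design allows, and 0.113 adjusted over 6 tests. The ratio of Psmb10 to Psmb7 was -2.30 ± 0.0871 in pachytene spermatocytes and -0.68 ± 0.237 in round spermatids (exact permutation p = 0.0286, adjusted 0.113). The adjusted p of the 6 ranged from 0.113 to 0.13, so none passed. Over the stages, the ratios spanned 0.80 for Psmb8 to Psmb5 and 0.62 for Psmb10 to Psmb7.

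The promoters of Psmb8 and Psme2 are shown because both genes belong to the interferon-induced group, fell into pachytene spermatocytes and hold the interferon motif; the windows run from 250 bases before to 50 after the start in RefSeq's GRCr8 and read 5′ to 3′. Capitals mark every motif match searched for, which here are the interferon motif in both, a CCAAT box read on the other strand in Psmb8, and the MYB motif AACNGNC in Psme2.
Psmb8, chr20:4656982-4657281, minus strand: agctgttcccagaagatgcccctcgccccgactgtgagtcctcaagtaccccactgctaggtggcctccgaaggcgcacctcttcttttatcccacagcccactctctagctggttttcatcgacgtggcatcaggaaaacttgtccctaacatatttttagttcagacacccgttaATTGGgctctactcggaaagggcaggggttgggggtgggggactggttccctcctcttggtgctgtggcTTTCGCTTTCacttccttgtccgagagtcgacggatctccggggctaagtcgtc
Psme2, chr15:33052702-33053001, minus strand: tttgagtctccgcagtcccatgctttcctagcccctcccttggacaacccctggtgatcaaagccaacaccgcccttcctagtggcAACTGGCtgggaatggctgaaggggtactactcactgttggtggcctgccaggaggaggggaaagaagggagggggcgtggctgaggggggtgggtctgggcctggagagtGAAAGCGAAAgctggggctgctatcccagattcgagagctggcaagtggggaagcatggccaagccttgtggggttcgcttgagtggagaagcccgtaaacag
The interferon motif, searched on both strands, was present in 7 of the 40 member promoters found in RefSeq (17.5%) and in 3.92% of 33469 rat promoters. It was in Psmb8, Psmb10 and Psme2 but its letters were not in the windows of Psmb9 and Psme1. It also lay in Psma4, Psmb3, Psmd7 and Psmg4, which are not of the interferon-induced group. A match is a description of letters only.

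Of the 17 subunits of the 19S cap, 5 rose into pachytene spermatocytes, 1 fell and 11 were not called, where 18.5% of all probe sets rose and 28.6% fell. Their median was 0.71, against -0.15 over all probe sets. Median centring gave 9 and 1, and quantile normalization 4 and 1. The ATPases Psmc3 (2.33), Psmc5 (1.43) and Psmc2 (1.12) rose, as did the non-ATPases Psmd8 (2.74) and Psmd12 (1.33). Psmc6, also an ATPase, fell by 1.97, and both of its other probe sets fell too, by 1.79 and 2.09. Psmc2 lost its call with quantile normalization (0.82).

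Psmd8, a subunit of the lid of the cap, had the largest rise. Its signal was 449, 393 and 256 in spermatogonia plus early spermatocytes and 2616, 1969, 2270 and 2891 in pachytene spermatocytes, followed by 1528 to 1683 in round spermatids. All later germ cell samples were above all earlier ones. The rise was 2.74 ± 0.172 (limma, adjusted p = 7.85e-11). Psmc3, an ATPase of the base, was 478, 485 and 358 and then 2287, 1820, 2147 and 2716, with 503 to 580 in Sertoli cells, a rise of 2.33 ± 0.130 (adjusted p = 1.51e-11). Psmc3 and Psmd12 were also lower in Sertoli cells than in the mean of the germ cell groups, by log2 differences of -1.22 and -1.10, but not by 2-fold with median centring (-0.89 and -0.78).

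**Figure D2:**
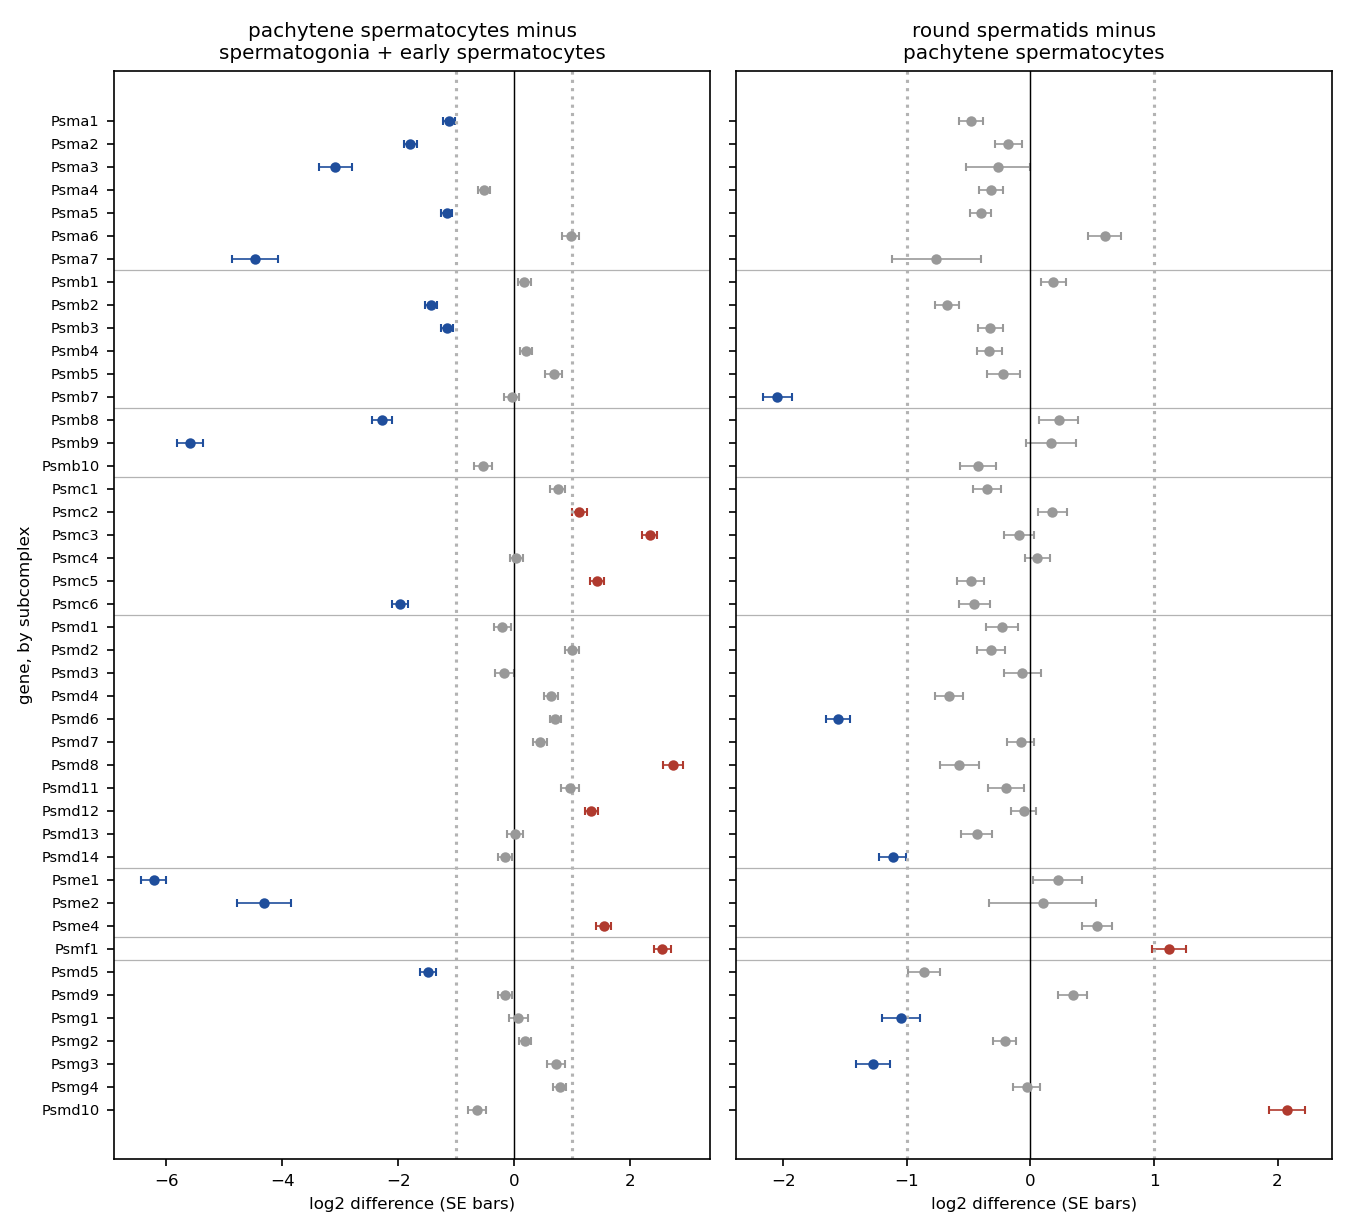
Log2 differences with SE for all 44 members, in the order of the heat map: red points rose, blue points fell and grey points were not called, and dotted lines mark 2-fold. In the pachytene panel the blue points of the 20S and interferon-induced genes, down to -6.21 for Psme1, face the red points of 19S genes, up to 2.74 for Psmd8; the round spermatid panel has 2 red and 5 blue points.

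From pachytene spermatocytes to round spermatids, 2 of the 17 genes of the 19S cap fell and 0 rose with limma, against 13.1% and 8.9% of all probe sets. At an unadjusted p under 0.05, 9 were lower and 0 higher, with no share of all probe sets counted at that threshold. The median was -0.32 against -0.06 over all probe sets. Psmd6, a lid subunit, was 1190, 1005, 1021 and 1277 in pachytene spermatocytes and 402, 362, 357 and 388 in round spermatids, and it fell by 1.56 ± 0.0954 (limma, adjusted p = 2.5e-10) with no overlap. Psmd14, the deubiquitinase of the lid, fell by 1.11 ± 0.112 (421 ± 32.6 to 193 ± 31.7), but by 0.92 with quantile normalization, short of 2-fold. In the comparison of spermatogonia plus early spermatocytes with Sertoli cells, Psmd4, a ubiquitin receptor, was lower by -1.24 ± 0.119 (288 ± 27.2 against 689 ± 93.5). Psmc6 was higher there, by 1.06 ± 0.139 (457 ± 2.76 against 218 ± 22.4), a call that ended without Sertoli cells replicate 1 (0.99) and with median centring (0.48). Psmd4 was 1.03 higher in Sertoli cells than in the mean of the germ cell groups and stopped short of 2-fold without Sertoli cells replicate 2 (0.96).

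Promoters of 3 of the 19S genes that rose are shown because all 3 hold the MYB motif AACNGNC, recognised by the MYB family that includes A-MYB, a known regulator of meiotic genes in spermatocytes. Capitals mark that motif and, in Psmc3, a CCAAT box.
Psmc3, chr3:97487393-97487692, plus strand: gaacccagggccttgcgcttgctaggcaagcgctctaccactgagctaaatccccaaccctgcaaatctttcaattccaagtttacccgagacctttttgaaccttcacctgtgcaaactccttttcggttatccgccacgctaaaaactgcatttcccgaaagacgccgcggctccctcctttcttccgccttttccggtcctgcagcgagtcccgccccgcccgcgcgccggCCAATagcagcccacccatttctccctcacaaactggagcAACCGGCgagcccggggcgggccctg
Psmc5, chr10:91687303-91687602, plus strand: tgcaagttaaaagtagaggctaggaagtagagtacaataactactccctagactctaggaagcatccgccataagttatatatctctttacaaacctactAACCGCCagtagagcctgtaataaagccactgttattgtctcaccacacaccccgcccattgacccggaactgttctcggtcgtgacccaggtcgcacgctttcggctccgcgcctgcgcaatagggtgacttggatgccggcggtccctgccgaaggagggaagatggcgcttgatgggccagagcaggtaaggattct
Psmd8, chr1:93608640-93608939, minus strand: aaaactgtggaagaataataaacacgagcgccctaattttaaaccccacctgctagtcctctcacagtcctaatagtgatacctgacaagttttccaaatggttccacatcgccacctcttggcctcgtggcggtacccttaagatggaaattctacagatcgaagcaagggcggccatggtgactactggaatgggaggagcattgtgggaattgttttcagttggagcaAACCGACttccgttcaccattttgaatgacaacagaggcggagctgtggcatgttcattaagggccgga
The MYB motif was in 3 of the 6 promoters of members that rose into pachytene spermatocytes (50%), in 3 of 12 of those that fell (25%), in 16 of all 40 (40%) and in 33.8% of rat promoters, so its presence was common everywhere. The ETS motif CCGGAAG was in 13 of the 40 member promoters (32.5%) and in 8.75% of all. CCAAT was in 20 (50%, against 37.5%) and the antioxidant response element TGACNNNGC, the binding letters of the Nrf family that controls proteasome genes under stress, in 7 (17.5%, against 12.1%). The CRE TGACGTCA and the NRF-1 motif were each in 1 (2.5%, against 1.83% and 0.852%). The GC content of the members' windows was 56.5%, against 51.7% over all promoters.

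The activator Psme4 (PA200) rose through spermatogenesis. It was 347, 347 and 271 in spermatogonia plus early spermatocytes, 1005, 857, 859 and 1041 in pachytene spermatocytes, and 1398, 1321, 1310 and 1426 in round spermatids, each group above the one before. The rise into pachytene was 1.54 ± 0.134 (limma, adjusted p = 7.37e-09). The further difference of 0.54 in round spermatids was under 2-fold. Another Psme4 probe set gave 1.65 for the pachytene difference, while the weakest, with a mean signal of 56.3, gave -0.40 and then fell by 2.72 into round spermatids; averaged over the 3, the rise was 0.93. Over the stages the Psme4 probe set used ranged 1.37-fold and the next brightest 1.59-fold, neither of them called. The weakest ranged 2.98-fold and was called, with a peak at VIII and its lowest level at VIIa.b (limma F-test, adjusted p = 0.00238).

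Psmf1 (PI31), a protein that inhibits the core in the test tube and serves as an adaptor for proteasome transport, rose in both germ cell steps. It was 196, 177 and 136 in spermatogonia plus early spermatocytes, 1092, 970, 952 and 1027 in pachytene spermatocytes, and 2356, 2884, 1844 and 1867 in round spermatids, and the groups did not overlap. It rose by 2.55 ± 0.147 and again by 1.12 ± 0.136 (limma, adjusted p = 2.57e-11 and 1.58e-06). The second step was 0.99 without round spermatids replicate 2. Psmf1 was also lower in Sertoli cells (209 to 246) than in the mean of the germ cell groups, by -1.62 ± 0.113.

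**Figure D3:**
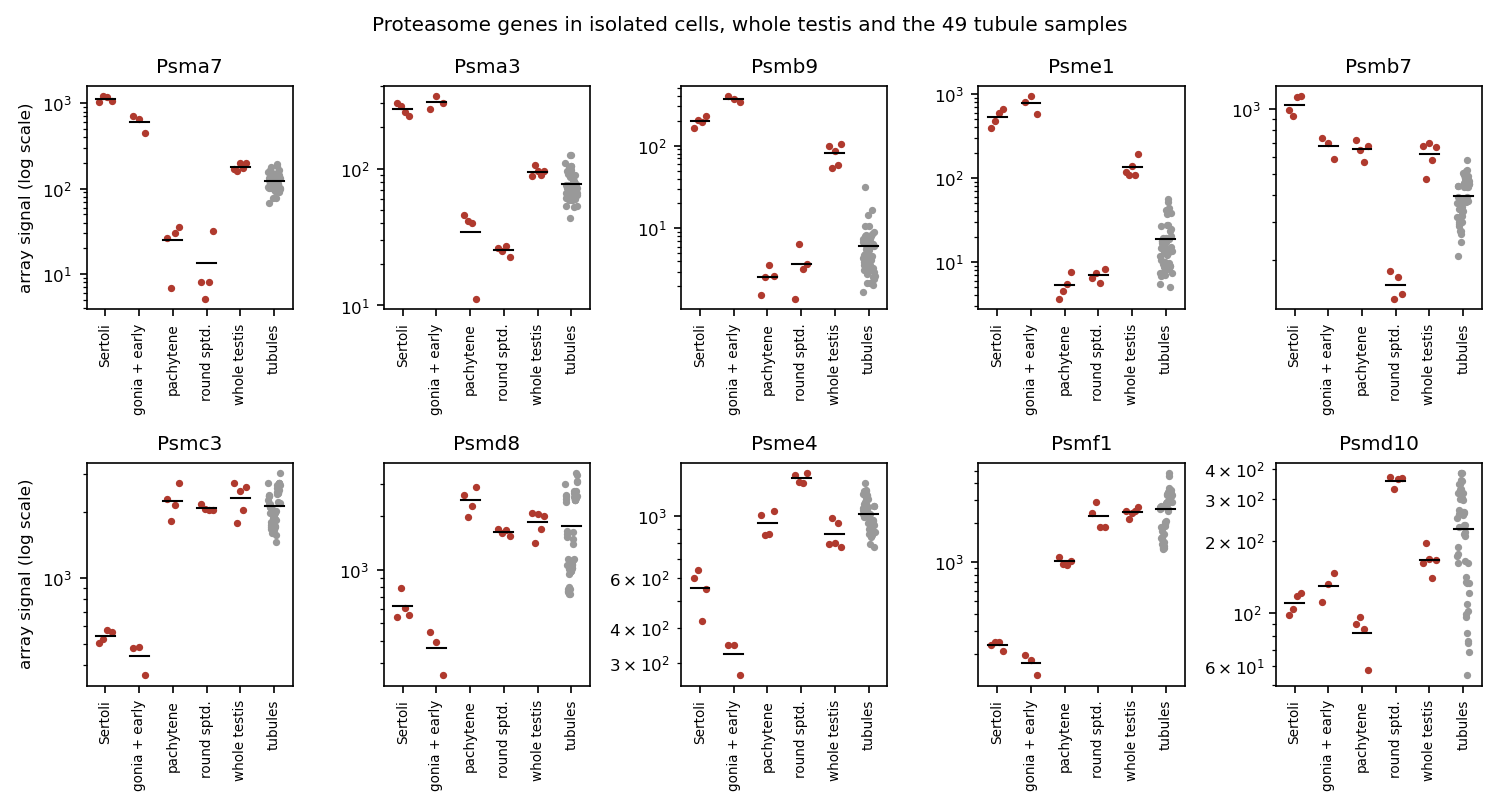
Signal on a log scale for 10 members; red points are the samples of isolated cells and whole testis, grey points the 49 tubule samples, and black bars the means. Psma7, Psma3, Psmb9 and Psme1 drop in pachytene spermatocytes, Psmb7 drops in round spermatids, Psmc3, Psmd8, Psme4 and Psmf1 rise in pachytene spermatocytes, and Psmd10 rises in round spermatids.

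Among the 7 assembly chaperones, which dock on unfinished particles and leave before they are active, Psmd10 (gankyrin) had the largest called change between isolated cells. It was 90.4, 95.9, 85.5 and 57.6 in pachytene spermatocytes and 370, 332, 363 and 368 in round spermatids, a rise of 2.08 ± 0.145 (limma, adjusted p = 1.25e-09). Psmd10 was the only X-linked member. Psmg3 and Psmg1, which help to build the alpha ring, fell by 1.27 and 1.05 into round spermatids; with quantile normalization the changes were -0.91 and -0.79, under 2-fold, and Psmg1 was also under 2-fold without pachytene spermatocytes replicate 2. Psmd5, a chaperone of the ATPase base, fell by 1.48 into pachytene spermatocytes (299 ± 23 to 105 ± 17.8). Psmd9, Psmg2 and Psmg4 were not called in any of the 4 comparisons of isolated cells.

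Over the cycle of the epithelium the typical member varied little. Of the 42 members tested, 10 were stage-regulated, meaning an adjusted p under 0.05 in limma's F-test over the 10 stages and at least 2-fold between the highest and the lowest stage mean. The same held for 32.5% of all 22258 probe sets tested. Psmb9 and Psme1 did not pass the filter on low signal. At an adjusted p under 0.05 alone there were 35 members, against 54.3% of all probe sets. The median member ranged 1.61-fold over the stages and the median probe set 1.85-fold. In bulk tubules, fewer cells of a type and less RNA per cell cannot be told apart.

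The constitutive 20S core had a median stage range of 0.59 on the log2 scale, below that of the 19S cap (0.73) and of the chaperones (0.91). None of its 13 constitutive genes was stage-regulated with limma, although 10 differed at an adjusted p under 0.05, and also 10 at an unadjusted p under 0.05. Their ranges lay between 1.21-fold for Psma4, which went from 270 ± 17.7 at VIII to 330 ± 38.4 at IX-XI, and 1.72-fold for Psma2. Psmb7 spanned 1.67-fold, and Psmb4 (1.34-fold) and Psmb5 (1.36-fold) were the flattest of the beta subunits. Of the 17 genes of the 19S cap, 6 were stage-regulated, a share near the 32.5% of all probe sets: the ATPases Psmc5 and Psmc6 and the non-ATPases Psmd3, Psmd4, Psmd6 and Psmd8. Psmc2 (1.18-fold) and Psmd2 (1.37-fold) were the flattest of their classes. The others were Psme2, Psmf1, Psmd10 and Psmg2.

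Psmd8 and Psmd10 had the widest ranges, 4.10-fold each. Psmd8 samples gave 777, 749, 762 and 730 at stage IV-V and 3473, 3080, 3368, 3113 and 2579 at XIII-XIV, and it was still 2604 ± 243 at stage I before it declined to 1392 ± 266 at II-III. The highest and lowest stages were far apart in every sample (limma F-test, adjusted p = 1.78e-27). Psmd6, another lid subunit, had its lowest mean in the same stage, 247 to 312 at IV-V, and stayed near 800 from IX-XI (798 ± 64.4) through XII (813 ± 61.8) to XIII-XIV (808 ± 93.4), a range of 2.94-fold (adjusted p = 2.01e-23). Psmd3 rose later, with 131 to 217 at IX-XI and 227 to 278 at XII. It peaked at stage I (356 ± 47.1) and was lowest at VI (144 ± 32.2).

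Psmf1 was lowest at the same point. It was 1380, 1310, 1286 and 1262 at IV-V and 3412, 4816, 4536, 3527 and 3665 at IX-XI, a 3.01-fold range (limma, adjusted p = 1.41e-24). The 2 highest of these samples, replicates 2 and 3, were among the tubule samples of VIIc.d and IX-XI with raised 3′ to 5′ ratios; without these the range was 1.43 on the log2 scale, against 1.59 with them. Psmc5 peaked a stage group earlier than Psmf1, at VIII, where it was 1365, 1441, 1414, 1232 and 1258, against 386 to 496 at IV-V, a range of 2.92-fold (adjusted p = 6.86e-26). Psmc5 was above 1100 in every sample from VIIc.d to IX-XI. Psmd4 peaked at IX-XI (556 ± 50.5) and was lowest at IV-V (259 ± 10.6), so that 5 of the 10 stage-regulated members had their minimum at IV-V. The share of all stage-regulated probe sets with that minimum was not counted.

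Psmd10 had the opposite course. It was 386, 387, 329, 361 and 384 at stage VI and 134, 82.5, 54.8, 76.4 and 102 at XII, a 4.10-fold range (limma, adjusted p = 2.47e-17). Psmg2, a chaperone of the alpha ring, also peaked in the middle of the cycle, at VIIa.b (546 ± 34), and was lowest at XIII-XIV (253 ± 22.9). Psmc6 had the same peak stage (170 ± 24.2) with its lowest level at I (73.9 ± 18.3); averaged with its other probe sets its range was 0.69 on the log2 scale, under 2-fold. Psme2 went from 44.2 ± 26.5 at I to 93.5 ± 11.4 at IX-XI. That call rests on stage I replicate 4, which read 8.47; without it the range was 0.82, under 2-fold.

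**Figure D4:**
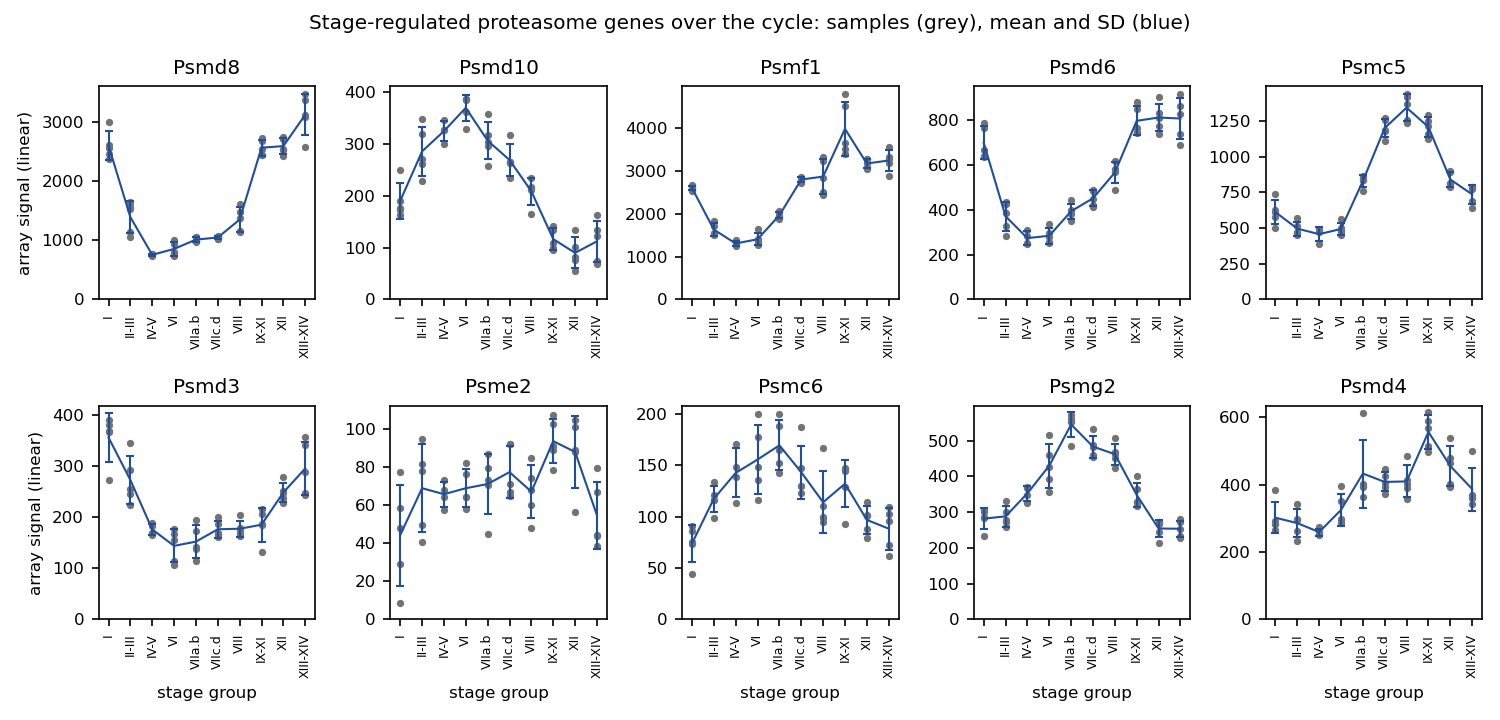
Signal (linear, from 0) of the 10 stage-regulated members over the 10 stage groups; grey points are tubule samples, and blue lines join the means with bars of 1 SD. Psmd8, Psmf1, Psmd6, Psmc5 and Psmd4 are lowest at IV-V, and Psmd10 is highest at VI (370 ± 25.1).

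Changes between neighbouring stages were gradual. No member changed by 2-fold in any of the 10 steps with limma, against 1.71% of all tests over the steps, while 60 of the 420 member tests were higher and 60 lower at an unadjusted p under 0.05. Without stage I replicate 2, or without stage VIII replicate 1, 1 member passed. At an adjusted p under 0.05 alone, the step from VIII to IX-XI had the most, with 14 members rising and 2 falling (against 15.7% of all probe sets in both directions). Psmd8 rose there by 0.93 ± 0.10, and the core subunits Psma4, Psma6, Psma7 and Psmb4 rose with the ATPases Psmc1 and Psmc3, while Psmd10 fell by 0.82 ± 0.17. IX-XI replicates 2 and 3, with raised 3′ to 5′ ratios, read highest for Psma6 (7262 and 7395, others 4576 to 5515). The same held for Psma7 (182 and 193, others 112 to 150) and Psmb4 (1146 and 1363, others 898 to 1124). For Psma4 replicate 4 was highest (367). The part of this ratio in the step was not tested. Over the 10 stages Psma7 did not pass the F-test (limma, adjusted p = 0.186). The step from I to II-III had 12 (7 up and 5 down, against 14.7%); in it Psmd8 and Psmd6 each fell by 0.92 ± 0.10, and Psmc6 rose by 0.67 ± 0.17. From II-III to IV-V there were 8 (against 9.8%), and 7 of these fell. From IX-XI to XII there were 10 (against 10.1%), of which 8 fell, led by Psmc5 with a fall of 0.52 ± 0.08.

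The remaining steps had fewer. From VI to VIIa.b there were 7 (against 9.54%), with Psmc5 up by 0.74 ± 0.08. There were 6 from VIIa.b to VIIc.d (against 6.83%), 3 from VIIc.d to VIII (against 3.9%), 3 from XII to XIII-XIV (against 7.44%) and 5 from XIII-XIV to I (against 6.75%). From IV-V to VI there were 0 with limma, against 2.71%, and at an unadjusted p under 0.05 there were 4 higher and 2 lower. Counting the highest stage of each tested member, 13 of 42 peaked at IX-XI and 6 at VIIa.b. Counting the lowest, 10 were at IV-V and 8 at VIII. The shares of all probe sets with these peak and lowest stages were not counted. The IX-XI group includes replicates 2 and 3, which had raised 3′ to 5′ ratios.

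Stage patterns and cell patterns can be set side by side, with no test between them. Psmd8, which was high at XIII-XIV and I, was highest of the cells in pachytene spermatocytes (2437 ± 402). Psmd10, which was high at VI, was highest of the cells in round spermatids (358 ± 17.8). Psmf1 was above its round spermatid level (2238 ± 491) in the means of VIIc.d to XIII-XIV and of stage I. Across the 4 cell types, Sertoli cells had the highest mean for 16 of the 44 members, spermatogonia plus early spermatocytes for 13, pachytene spermatocytes for 10 and round spermatids for 5. Round spermatids were lowest for 21 members. The same counts over all probe sets were not made, and array medians differed between the cell groups.

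Whole testis differed from tubules in 2 members. Psmb9 was 99.6, 54.2, 85.1, 57.9 and 106 in the 5 whole testis samples, above its highest stage mean of 9.6, and Psme1 was 118, 109, 137, 108 and 194, above its highest stage mean of 33.7. Replicates 2 and 4 were the lowest for both genes. The differences were 2.97 ± 0.264 and 2.67 ± 0.269 (limma, adjusted p = 5.96e-13 and 3.77e-11), and averaged over both probe sets Psme1 was 0.95 higher. These 2 were the members called higher, where 2.31% of 22504 probe sets were. No member was called lower with limma, where 1.2% of probe sets were. At an unadjusted p under 0.05, 27 members were higher and 4 lower, with no share of all probe sets counted at that threshold. Macrophage and blood markers summed to 329 to 751 and Leydig markers to 2019 to 2537 in whole testis, both above every tubule sample, and their part was not tested. The constitutive core and cap were slightly higher, with medians of 0.25 for the 20S and 0.20 for the 19S genes. The median over all probe sets was -0.05. At an unadjusted p under 0.05, 10 of 13 20S genes were higher and 0 lower. Of the 17 19S genes, 10 were higher and 1 lower. For these counts too, no share of all probe sets was counted. Replicates 2 and 4 were also the lowest for Psmb4 (946 and 985, others 1525 to 1771) and Psmb5 (1024 and 1232, others 2082 to 2178). For Psmb10 they were the highest (140 and 133).

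Other genes of the pathway were taken from a list of 36, of which 29 were measured. Over the stages, 14 of 25 tested were called, against 32.5% of all probe sets. Into pachytene spermatocytes 4 rose and 12 fell of 28 tested, against 18.5% and 28.6%. The rising and falling genes included partners of the cap and of the ubiquitin chain. Uchl5, a deubiquitinase of the cap, rose by 2.18 and Adrm1, the ubiquitin receptor that recruits it, by 1.03, as the shuttle Ubqln1 (1.60) and the segregase cofactor Nploc4 (1.74) did. Among those that fell, the log2 differences were -3.30 and -2.17 for the ubiquitin-activating enzymes Uba1 and Uba6, -4.43 and -1.07 for the shuttles Ubqln2 and Rad23b, and -2.75 and -1.62 for the proteasome-binding proteins Zfand5 and Txnl1. Ubqln2 averaged 272 in spermatogonia plus early spermatocytes and 9.44 in pachytene spermatocytes, and over the stages it spanned 8.62-fold with a peak at IV-V.

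Several list members had wide stage ranges. Adrm1 ranged 3.41-fold with a peak at VIII and its lowest level at IV-V, the peak and lowest stages of Psmc5. Nlrc5, an activator of MHC class I genes, ranged 4.99-fold with the same peak and lowest stages, Nploc4 ranged 4.04-fold with a peak at XIII-XIV, Uba1 3.22-fold with a peak at VIIa.b, and Nfe2l2, a factor of the stress response, 4.88-fold with a peak at I. The lowest Nlrc5 means were weak and nearly tied, 9.69 ± 10.9 at IV-V and 9.96 ± 11 (SD) at XIII-XIV, so its fold and lowest stage are loosely set. Nfe2l1, the factor known to drive proteasome genes when the proteasome is inhibited, ranged 1.20-fold and was not called. Pomp, the chaperone of core maturation, was not called in any comparison of cells and ranged 1.42-fold, and Sem1, a small subunit of the cap with a symbol outside the rule, ranged 1.78-fold.

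How alike the members were can be described by the correlation of a member's 15 group means with the median of the other constitutive 20S and 19S genes. It was highest for Psmb4 (r = 0.87), Psmg3 (0.78), Psmd14 (0.77) and Psmd13 (0.75). It was lowest for Psmd10 (-0.77), Psma6 (-0.67) and Psmc2 (-0.62). The groups share scaling and array, and the values describe these 15 means only.

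Where members had several probe sets, the correlation over the 69 arrays between the one used and the next brightest was 0.88 for Psme4, 0.83 for Psmd14 and 0.73 for Psmc6. It was 0.63 for Psmd7, -0.01 for Psmb5, -0.05 for Psmd9, -0.17 for Psmc4 and -0.52 for Psme1. For Psmd11 the correlation was -0.33, and its next brightest probe set fell by 1.31 into pachytene spermatocytes where the one used was 0.96 higher and not called. Other probe sets of Psmd7 (2.23-fold), Psmd9 (2.05-fold) and Psmd11 (6.44-fold, mean signal 20.4) were stage-regulated where the ones used were not. Of the 44 members, 17 have pseudogene entries in RefSeq, up to 7 for Psmb3, whose copies could share probes. Psmc3ip averaged 849 ± 66.1 in pachytene spermatocytes, rose by 1.61 into pachytene spermatocytes and ranged 2.10-fold over the stages with a peak at II-III. Psme3ip1 was not called in any comparison.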

How the data were processed

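RNA was measured on Affymetrix arrays in 69 samples. The authors deposited linear signal intensities, 1 for each probe set on each array, made with MAS5 per the submitters' processing notes (version not given in the sources used here). On every array, the mean left after trimming 2% from both ends was 99.99, and no further step between arrays was found. Detection calls were not used here. Of 31099 rows, 57 controls were left out; 20826 probe sets had 1 gene symbol, 436 several, and 9780 were not listed. Of those with 1 symbol, 20758 were updated to current RefSeq names (GRCr8); RefSeq also gave promoters for 40 of the 44 members. The files gave no other sample columns.

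Values were analysed as log2(signal + 5.11) with limma 3.58.1 (lmFit and eBayes with trend) in R 4.3.3. Probe sets entered a fit if 3 or more of its samples read above 43.7, the median over all values. Stages were fitted over 49 tubule samples, cells over 15 samples and whole testis over 54, with no covariate. p-values are two-sided and Benjamini-Hochberg adjusted over all probe sets of a contrast. Ratios of paired subunits were tested by exact permutation over samples, or 100000 resamples over stages. The model was tested on simulated data. With 3 to 5 arrays in a group, their number sets the precision.

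The members, the gene lists and the tests were chosen with earlier results of these data known. Full values were given for the replacement subunits and their counterparts, the 10 called members with the largest change in each comparison, and the members of each class with the widest and narrowest stage range. Alternatives were the pseudocount, the low-signal filter, array scaling, a replicate block, the choice of probe set and leaving out samples.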

Additional observations from a re-analysis of the deposited data

Results flagged for a closer look

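For the 30 members given in full, each of 14 groups of 4 or 5 samples was examined for a sample that stood apart from the others, 420 in all, of which chance flags about 1 in 20. Flags were raised in 26. In round spermatids, Psma7 read 32.1 in replicate 4 against 5.09 to 8.04 in the others, and in replicate 2 Psme2 read 55.3 (others 6.51 to 14.7), Psmb2 157 (183 to 187) and Psmd10 332 (363 to 370). In pachytene spermatocytes, Psma3 read 11.2 in replicate 4 against 40.2 to 45.6. In Sertoli cells, Psmg2 read 344 in replicate 4 against 377 to 382.

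Among tubules, replicate 1 of several stages stood apart. Psmd4 was high in replicate 1 of stage I (383), VIIa.b (611.5) and XIII-XIV (499.9), and Psmb4 in replicate 1 of VIIa.b (1021) and XIII-XIV (1396). Psmb7 was low in XIII-XIV replicate 1 (376), Psmd3 low in stage I replicate 1 (273), and Psma3 (104.5) and Psma7 (131) were high in VIIc.d replicate 1. For Psmd4 at VIIa.b the other samples were 362 to 401. Psmd4 read highest in replicate 1 of every stage group that had one, and IV-V, its lowest stage, had none.

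The other flags were single samples. Psma4 read 336 in XIII-XIV replicate 2, Psmb8 99.4 in stage I replicate 2, Psmc5 756.5 in VIIa.b replicate 3, Psmc6 167 in VIII replicate 4, and Psmd5 116.5 in IX-XI replicate 5. Psmb9 read 31.3 in II-III replicate 4 against 3.13 to 4.85, and 10.8 in VIIc.d replicate 3. Psme1 read 9.34 in IV-V replicate 4, Psme4 882 in IX-XI replicate 4, Psmg1 223 in IV-V replicate 5 and Psmg2 486 in VIIa.b replicate 5.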

How the results depend on the processing

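Of 53 calls of single genes, 37 held under every alternative run, 16 were lost under at least 1, and 0 changed direction. With quantile normalization, members called higher in spermatogonia plus early spermatocytes than in Sertoli cells numbered 5 and lower 2, and 3 were lower in round spermatids. With median centring, 0 were higher and 16 lower in spermatogonia plus early spermatocytes than in Sertoli cells, 15 were higher in pachytene spermatocytes, and 1 was lower in Sertoli cells than in germ cells. With the mean of all probe sets of a gene, 1 was higher in whole testis than in tubules and 0 were higher in spermatogonia plus early spermatocytes than in Sertoli cells. Leaving out 1 sample at a time gave 0 to 1 changed members over the adjacent steps, 0 to 2 higher and 1 to 2 lower in spermatogonia plus early spermatocytes, and 1 to 2 higher in round spermatids. The cause of these moves was not tested. Low signals, such as those of Psmb9 and Psme1 in later germ cells, limit the folds.

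With the replicate block, 10 members were stage-regulated, 7 rose and 13 fell into pachytene spermatocytes, and no other count of calls moved by over 1.5 times. Same-numbered samples were slightly more alike than others. The correlation of deviations averaged 0.057 over 216 same-numbered tubule pairs (41 above 0.1), against -0.014 over other tubule pairs. In cell samples it averaged 0.029 over 21 same-numbered pairs (4 above 0.1), against -0.009 over other pairs. What same-numbered samples shared was not tested.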
